A study of Homo sapiens with 8 samples.

Results

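The ETS family transcription factor genes described here are ETV6, ETS1, FLI1, SPI1, ELF1 and ETS2, and each was represented by a fixed hg19 window around the gene. The windows were chr12:11780000-12070000 for ETV6, chr11:128300000-128500000 for ETS1, chr11:128530000-128710000 for FLI1, chr11:47360000-47430000 for SPI1, chr13:41480000-41640000 for ELF1 and chr21:40150000-40230000 for ETS2. Every ChIP-seq peak that touched one of these 6 windows was a member, which gave 486 peaks of the 224923 in the 6 deposited peak lists. Together the windows cover 980 kb, or 0.0333% of the span of chromosomes 1 to 22 and X. The series mapped NIPBL, MED1 and SMC1A in GM12878, an established lymphoblastoid line made by Epstein-Barr virus transformation of B lymphocytes. NIPBL loads cohesin onto DNA, MED1 belongs to the Mediator complex that links enhancer-bound factors to RNA polymerase II, and SMC1A belongs to the cohesin ring. Each protein had 2 libraries, no treatment is given for any of them, and both whole cell extract libraries served together as the control of each list. The labels do not state whether replicate libraries were grown as separate cultures, and their spread may be technical.

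ETS proteins share a DNA-binding domain that reads a short purine-rich core in DNA, and many of them control the development of blood cells. In the B lineage, SPI1 (also called PU.1) directs early commitment, ETS1 and FLI1 act in maturing B cells, ELF1 is an activator found across lymphoid cells, ETV6 is a repressor whose fusion with RUNX1 drives childhood B-cell leukaemia, and ETS2 acts downstream of Ras and MAP kinase signalling. Genes that fix the identity of a cell often lie beside long clusters of enhancers with much Mediator. All positions of peaks are hg19, and no hg19 annotation was used here, so whether a region lies in an exon, an intron or upstream of the gene was not determined. A region in a window is therefore not assigned to the gene whose name the window carries.

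Promoter sequences were available in the RefSeq table for 3 of the 6 genes, ETV6, ELF1 and ETS2, and are shown because these genes ranged from the most MED1 in the windows to none at all. Each is the 250 bases upstream of the most upstream start listed for the gene, read 5′ to 3′ along the gene. They lie at chr12:11649424-11649673 on the + strand, chr13:41061387-41061636 on the - strand and chr21:38804933-38805182 on the + strand of GRCh38.p14. Capitals mark the ETS core GGAA on either strand, where the other strand reads TTCC.
ETV6: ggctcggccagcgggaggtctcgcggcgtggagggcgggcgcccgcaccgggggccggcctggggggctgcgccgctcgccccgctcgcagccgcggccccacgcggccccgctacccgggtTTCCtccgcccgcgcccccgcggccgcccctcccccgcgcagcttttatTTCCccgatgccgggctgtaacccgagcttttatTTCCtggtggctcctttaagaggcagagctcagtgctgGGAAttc
ELF1: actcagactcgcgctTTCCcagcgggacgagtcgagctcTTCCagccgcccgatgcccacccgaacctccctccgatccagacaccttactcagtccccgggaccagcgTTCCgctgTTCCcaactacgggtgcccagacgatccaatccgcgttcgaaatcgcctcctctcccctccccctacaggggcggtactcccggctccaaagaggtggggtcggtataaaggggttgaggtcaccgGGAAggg
ETS2: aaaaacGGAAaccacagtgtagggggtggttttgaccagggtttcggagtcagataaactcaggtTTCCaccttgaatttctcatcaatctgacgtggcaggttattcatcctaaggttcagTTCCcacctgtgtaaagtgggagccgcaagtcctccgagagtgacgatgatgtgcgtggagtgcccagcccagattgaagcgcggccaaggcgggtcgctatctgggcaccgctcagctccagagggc
The core occurred 4 times upstream of ETV6, 5 times upstream of ELF1 and 3 times upstream of ETS2. Of 35116 promoter entries of the same length, 92.7% held at least 1 core, with a median of 3 and quartiles of 2 and 4. By the entries shown, ETV6 and ETS2 lay within the quartiles and ELF1 above them. The other starts listed held 3 and 0 cores at ELF1 and 6 at ETS2, so this placing depends on the start chosen. The longer site CCGGAAGT, which contains the core, was searched on both strands and was found in 3.42% of all entries and in none of these 3. Peaks and promoters are on different builds, and their positions relative to each other were not determined.

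By number of peaks, in windows of unequal length from 70 to 290 kb, ETV6 came first and ETS2 last for MED1 and SMC1A in both replicates. The NIPBL lists held 28 and 28 peaks in the ETV6 window, 16 and 12 in ETS1, 10 and 7 in FLI1, 1 and 2 in SPI1, 11 and 4 in ELF1, and 1 and 0 in ETS2 (replicates 1 and 2). The MED1 lists held 36 and 43 peaks in ETV6, 12 and 20 in ETS1, 7 and 17 in FLI1, 2 and 8 in SPI1, 9 and 11 in ELF1, and none in ETS2. The SMC1A lists held 32 and 43 peaks in ETV6, 30 and 29 in ETS1, 11 and 16 in FLI1, 4 and 7 in SPI1, 11 and 12 in ELF1, and 3 and 3 in ETS2. The replicates gave like numbers of NIPBL peaks at ETV6 and of SMC1A peaks at ETS1, ELF1 and ETS2, whereas MED1 replicate 2 had many more peaks than replicate 1 at FLI1 and SPI1. MED1 replicate 1 peaks in the windows were all found again in replicate 2 (100% of 66), whereas 48.5% of the 99 replicate 2 peaks were found in replicate 1. For NIPBL the shares found in the other replicate were 61.2% of 67 and 81.1% of 53, and for SMC1A 87.9% of 91 and 66.4% of 110. Over the whole lists the shares for replicates 1 and 2 were 98.99% and 33.55% for MED1, 55.6% and 79.3% for NIPBL and 91.99% and 75.6% for SMC1A.

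**Figure D1:**
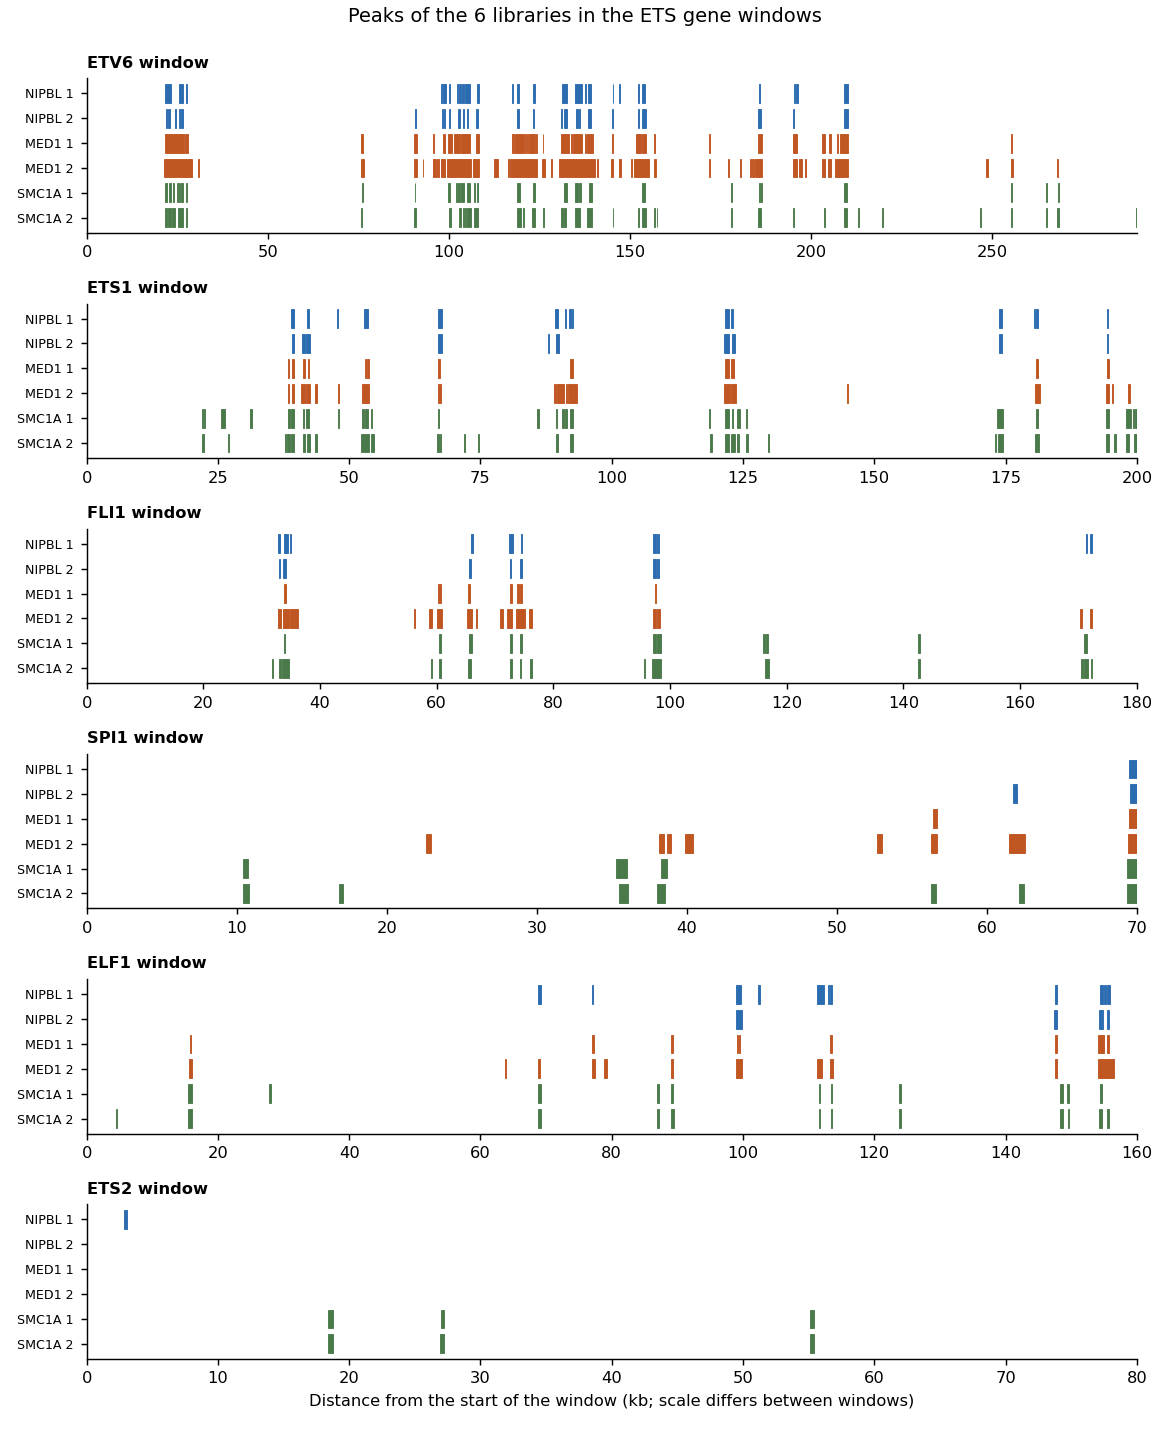
Position of each peak (boxes, outlined so that narrow ones remain visible) in kb from the start of each window, with a row for each of the 6 libraries (NIPBL, MED1 and SMC1A, replicates 1 and 2). The ETV6 window holds a dense block of NIPBL, MED1 and SMC1A peaks, and the ETS2 window holds SMC1A peaks at 3 places, a NIPBL peak in 1 library and no MED1 peak.

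A region below is the merge of overlapping peaks of a protein found in both of its replicates, and a region counts as overlapping another protein's region from 1 bp. The 6 windows held 39 NIPBL regions of 11635 in the genome, 47 MED1 regions of 15007 and 70 SMC1A regions of 51020. That is 3.98 NIPBL regions per 100 kb in the windows against 0.396 over the whole span, 4.80 against 0.51 for MED1 and 7.14 against 1.74 for SMC1A. Without the ETV6 window the densities per 100 kb were 3.04 for NIPBL, 3.77 for MED1 and 6.52 for SMC1A. The windows were chosen around genes and the span includes stretches without any, so these densities are descriptions and were not tested. By gene, the NIPBL regions numbered 18 at ETV6, 9 at ETS1, 7 at FLI1, 1 at SPI1, 4 at ELF1 and 0 at ETS2, the MED1 regions 21, 11, 6, 2, 7 and 0, and the SMC1A regions 25, 19, 9, 4, 10 and 3. Per 100 kb, ETV6 held the most NIPBL regions, at 6.21 against 4.50 at ETS1, and the most MED1 regions, at 7.24 against 5.5, but ETS1 held the most SMC1A regions, at 9.50 against 8.62 at ETV6.

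Most NIPBL regions in the windows lay on MED1, on SMC1A or on both. Of the 39, 34 overlapped a MED1 region, or 87.2% (exact 95% binomial interval 72.6 to 95.7), against 70.2% of all NIPBL regions. An SMC1A region was met by 32, or 82.1% (66.5 to 92.5), against 62.4% of all. Both partners were present at 28, or 71.8% (55.1 to 85.0), against 47.8% of all. With lists cut to equal length by fold enrichment, where 6 SMC1A regions were left in the windows, the share with SMC1A was 6.90%, that with both 0% and that with MED1 79.3%. The 3 genome shares lay below the intervals of the full lists, but an interval covers counting error only, and neighbouring regions of a window are not independent. Without the ETV6 window the shares were 76.2% (52.8 to 91.8) with MED1, 81.0% (58.1 to 94.6) with SMC1A and 61.9% (38.4 to 81.9) with both, and all 3 intervals then held the genome share. All these shares count overlap from 1 bp. With summits at most 200 bp apart instead, the shares with MED1 and with both were smaller. The genome shares under that rule, and in lists of equal length, were not computed. Summits of overlapping NIPBL and MED1 lay within 200 bp at 70.6% and 64.7% in the windows, against 87.1% and 81.9% over the genome.

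The other classes of NIPBL regions were small. MED1 alone was met by 6 regions, or 15.4% (5.86 to 30.5), against 22.4% of all NIPBL regions, and these 6 lay at ETV6 and ELF1, with 3 at each. SMC1A alone was met by 4, or 10.3% (2.87 to 24.2), against 14.6% of all, with 3 at ETS1 and 1 at FLI1. A single region, at FLI1, had neither partner, or 2.56% (0.0649 to 13.5), against 15.2% of all. By the sum of absolute differences in the 4 class shares, ETS1 and FLI1 were the most alike of the windows with more than 1 NIPBL region, at 38.1 percentage points. These genes are neighbours, with no protein-coding gene between them in the RefSeq table. ELF1 stood furthest from the others, at 116.7 points from its closest match, ETV6, but it rests on 4 regions.

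**Figure D2:**
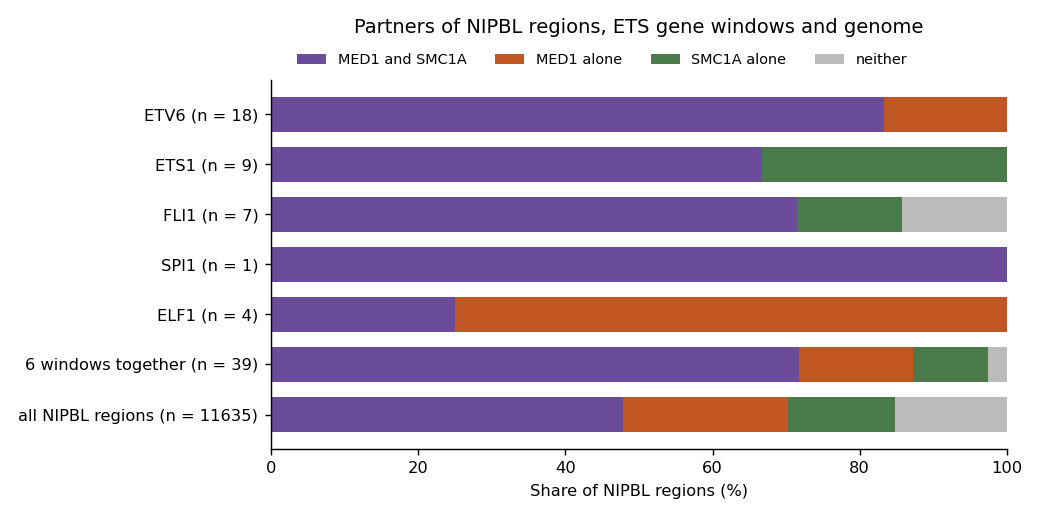
Share of NIPBL regions (%) that overlapped MED1 and SMC1A, MED1 alone, SMC1A alone or neither, for the 5 windows with a NIPBL region, the 6 windows together and all NIPBL regions. Both partners were present at 71.8% of the 39 regions in the windows and 47.8% of all 11635.

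Seen from the partners, the share of MED1 regions on NIPBL was near that of the genome, and the shares that involve SMC1A were above it. Of the 47 MED1 regions 25 overlapped NIPBL, or 53.2% (38.1 to 67.9), against 49.3% of all MED1 regions. SMC1A was met by 34, or 72.3% (57.4 to 84.4), against 52.2% of all. Of the 70 SMC1A regions 32 overlapped NIPBL, or 45.7% (33.7 to 58.1), against 14.3% of all SMC1A regions, and 44 overlapped MED1, or 62.9% (50.5 to 74.1), against 17.5% of all. The SMC1A regions with neither partner numbered 23, or 32.9% (22.1 to 45.1), against 79.2% of all. Without the ETV6 window, SMC1A overlapped NIPBL at 16 of 45 regions, or 35.6% (21.9 to 51.2), and MED1 at 22 of 45, or 48.9% (33.7 to 64.2), so the SMC1A shares remained above those of the genome.

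At ETV6, most NIPBL regions lay in a single cluster, together with broad MED1. NIPBL regions at most 12.5 kb apart were joined into clusters, and 12 of the 18 at ETV6 fell into a cluster of 41.5 kb at chr12:11877931-11919392. Of 7439 NIPBL clusters in the genome, 8 held at least as many regions, this one included. The MED1 cluster there also had 12 regions over 66.8 kb (19 of 9228 MED1 clusters were at least as large), and the SMC1A cluster had 11 regions over 49.2 kb (70 of 33146). All 18 NIPBL regions at ETV6 overlapped MED1, and 15 also overlapped SMC1A.

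The NIPBL region of highest fold enrichment in any of the windows lay at chr12:11989193-11990183 in the ETV6 window, outside that cluster. Fold enrichment, the authors' ratio of signal to local control at the summit, was 7.91 and 10.4 for NIPBL, with 88 and 84 fragments at the summit. It was 13.3 and 34.1 for MED1, with 154 and 258 fragments, and 4.56 and 6.53 for SMC1A, with 40 and 48 fragments. The region ranked 233rd of all 11635 NIPBL regions by its mean percentile within the lists, while its SMC1A peaks stood at the 22.5th and 45.04th percentile of their lists. The next within the ETV6 window was chr12:11801655-11803393, with NIPBL at 6.80 and 6.26, MED1 at 10.7 and 20.1 and SMC1A at 4.15 and 5.10. The third at ETV6, chr12:11880066-11880461 in the cluster, had NIPBL at 5.501 and 5.87, MED1 at 7.24 and 19.7 and SMC1A at 4.86 and 6.40. In these 3 regions of ETV6 the MED1 enrichment was above that of NIPBL in both replicates of each, although enrichments from different antibodies share no common scale.

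Broad MED1 binding in the windows was found at ETV6. MED1 regions over 5 kb numbered 4 of the 47 in the windows, or 8.51% (2.37 to 20.4), against 1.03% of all MED1 regions, and all 4 were at ETV6. The widest, chr12:11910471-11920042, spanned 9572 bp, ranked 32nd in width of 15007 and held 3 NIPBL and 3 SMC1A regions. Its highest MED1 enrichment was 16.4 in replicate 1 and 37.0 in replicate 2, and NIPBL enrichment over the 3 regions reached 5.66 and 6.07. The others were chr12:11801469-11809112 with 7644 bp and 2 NIPBL regions, chr12:11896871-11904497 with 7627 bp and 2 NIPBL regions, and chr12:11880929-11886119 with 5191 bp and 3 NIPBL regions. These widths come from replicate 2, where each region was 1 unbroken peak. In replicate 1 the widest MED1 peak in the windows had 5253 bp, and the 9572 bp stretch held 5 separate peaks. Several NIPBL regions at ETV6 therefore share a single MED1 peak of replicate 2. MED1 regions covered 17.5% of the ETV6 window, against 5.65% for NIPBL and 6.69% for SMC1A.

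SMC1A at ETV6 was frequent but weak. The highest enrichment of its 25 regions, at chr12:11914823-11916428, was 7.08 and 8.79, where the medians of the whole lists were 8.61 and 7.53. MED1 was present at 22 of the 25. Of the 21 MED1 regions at ETV6, 8 overlapped neither a NIPBL nor an SMC1A region. Over the genome 49.3% of MED1 regions overlapped NIPBL and 52.2% SMC1A, and the share with neither was not computed. Some of the 8 still held partner peaks that formed no region. At chr12:11924808-11925440, NIPBL was called at 3.47 and 4.05 and SMC1A in replicate 2 only, at 3.29. Others, such as chr12:11951841-11952119, held no partner peak.

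Of the 9 NIPBL regions at ETS1, 6 had both partners and 3 had SMC1A alone, and SMC1A was strong at 2 of these 3. The strongest by percentile, chr11:128338887-128339413, had NIPBL at 4.65 and 5.33, MED1 at 3.86 and 11.8 and SMC1A at 7.19 and 8.43. The next, chr11:128499938-128500718, crossed the window's border and had NIPBL at 5.20 and 4.12 and SMC1A at 21.1 and 21.8, with 219 and 243 fragments at the SMC1A summits. MED1 was called there in replicate 2 only, at 2.70. The third, chr11:128473834-128474391, had NIPBL at 5.11 and 4.07 and SMC1A at 26.5 and 28.8, the highest SMC1A enrichments in the windows. It was the single NIPBL region of the 39 with no MED1 peak in either list, and over the genome 93.9% of NIPBL regions met a MED1 peak of any list. The remaining region with SMC1A alone, chr11:128389232-128389902, had SMC1A at 4.95 and 4.04 and a MED1 peak of 4.32 in replicate 2.

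MED1 regions at ETS1 were narrower than at ETV6. The widest of the 11, chr11:128352411-128353753, had 1343 bp and MED1 at 3.18 and 7.06, overlapped SMC1A and met NIPBL in replicate 1 only, at 3.61. All 11 overlapped SMC1A, and 6 overlapped NIPBL. The 19 SMC1A regions covered 6.80% of the window, against 4.72% for MED1 and 2.81% for NIPBL, whereas at ETV6 MED1 covered most.

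At FLI1, 5 of 7 NIPBL regions had both partners. The strongest, chr11:128602362-128603150, had NIPBL at 7.67 and 5.35, MED1 at 6.40 and 10.95 and SMC1A at 2.45 and 4.55. The next, chr11:128563719-128564435, had NIPBL at 5.24 and 4.20, MED1 at 5.59 and 10.7 and SMC1A at 4.05 and 6.71. The SMC1A regions at these places had mean percentiles of 13.3 and 31.4 within their lists. The third, chr11:128627819-128628116, had NIPBL at 4.13 and 4.22 and MED1 in replicate 2 only, at 8.24. It overlapped SMC1A peaks of 9.24 and 14.9, but both SMC1A summits lay outside it, and that of replicate 2 lay in the neighbouring NIPBL region chr11:128627137-128627552, which had both partners. The region counted as having neither partner, chr11:128562725-128563185, had NIPBL at 3.61 and 4.31, and replicate 2 of each partner was called there, with MED1 at 4.38 and SMC1A at 4.08. No NIPBL region in the windows thus lacked both partners in all 4 lists. A MED1 peak of any list was met by 97.4% of NIPBL regions in the windows, against 93.9% of all. For SMC1A these shares were 89.7% and 82.1%.

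The strongest SMC1A regions of the FLI1 window had neither partner. Enrichment was 20.5 and 24.6 at chr11:128646348-128646935 and 19.4 and 20 at chr11:128700955-128701542, where NIPBL replicate 1 alone was called, at 2.72. The widest of 6 MED1 regions, chr11:128603541-128605104, had 1564 bp and MED1 at 4.97 and 8.81, and overlapped NIPBL and SMC1A.

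The SPI1 window, the shortest, held 1 NIPBL region, at its very edge. At chr11:47429460-47430089, NIPBL was at 3.21 and 3.45, the 21.96th and 24.5th percentile of the lists, MED1 at 7.998 and 15.8, and SMC1A at 18.3 and 21.3. The region crossed the border of the window at its higher coordinates. SLC39A13 is the next protein-coding gene in the RefSeq table, and its position relative to the region was not determined. Inside the window, the strongest SMC1A region was chr11:47395311-47396072, with 20.8 and 22.5 and 186 and 199 fragments, and it had neither NIPBL nor MED1. Of the 8 MED1 peaks of replicate 2, 6 were not called in replicate 1, and their enrichment was 4.11 to 7.51. Their presence therefore rests on 1 library.

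Of the 4 NIPBL regions at ELF1, 3 overlapped MED1 alone, as many as at ETV6, and 1 overlapped both. At chr13:41627453-41627891 NIPBL was at 4.69 and 3.98 and MED1 at 3.999 and 5.95, with no SMC1A peak in either list. The same held at chr13:41579005-41579795, with NIPBL at 3.54 and 3.37 and MED1 at 3.35 and 5.94. At chr13:41634304-41634915 NIPBL was at 4.37 and 3.77, MED1 at 3.59 and 10.8 and SMC1A at 4.79 and 5.24. It shared its MED1 region, the widest at ELF1 with 2387 bp, with chr13:41635439-41635870, where NIPBL was at 3.97 and 3.59 and SMC1A was called in replicate 2 only, at 2.83. All 4 NIPBL enrichments of replicate 2 were below those of the strongest regions at ETV6, ETS1 and FLI1. This did not hold in replicate 1, where 4.69 at chr13:41627453-41627891 was above the 4.65 of the strongest ETS1 region. It was below the 7.91 and 7.67 of those at ETV6 and FLI1. The strongest SMC1A region, chr13:41548818-41549198, had 11.7 and 13.2 and no partner region. Of the 11 NIPBL peaks of replicate 1 here, 4 were found again in replicate 2.

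The ETS2 window carried cohesin and no Mediator peak. SMC1A was at 14 and 18.1 at chr21:40168410-40168745, at 5.25 and 6.66 at chr21:40176930-40177231, and at 5.74 and 9.77 at chr21:40205073-40205381. Both lists gave the same 3 places, and none had a NIPBL or MED1 peak. The 1 NIPBL peak, chr21:40152818-40153104 at 3.14, was called in replicate 1 alone. The control estimate at the strongest SMC1A region was 1.79 and 1.76 fragments, below the list medians of 4.14 and 4.09, and its part in the enrichment was not tested. The lowest pileup called anywhere in the NIPBL and MED1 lists was 8 to 11 fragments. In the windows it was 17 and 17 for NIPBL and 16 and 14 for MED1. Binding too weak to be called would not appear in these lists, and the limit at ETS2 itself was not determined.

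Within the NIPBL regions of the windows, MED1 was strong, NIPBL middling and SMC1A weak relative to each list. Percentiles of fold enrichment run from 0 for the weakest to 100 for the strongest peak of a list, and a partner's value is that of its strongest overlapping peak. The summit of that peak lay outside the NIPBL region at 3 of 33 and 11 of 38 regions for MED1, and at 2 of 32 and 4 of 35 for SMC1A. The median MED1 percentile was 85.5 and 92.9 in the windows, against 71.2 and 84.8 at all NIPBL regions. For NIPBL it was 59.4 and 42.5, against 66.5 and 57.4 at all. For SMC1A it was 20.9 and 32.2, against 22.5 and 32.2 at all. MED1 thus ranked above and NIPBL below the genome medians in both replicates, and SMC1A lay close to them. At ETV6 the MED1 medians were 95.3 and 98.9, with peaks shared by several regions counted at each. At ETS1 they were 52.2 and 70.1 and at ELF1 36.2 and 80.2, below the genome medians in both replicates. At FLI1 they were 78.8 and 87.6, and the 1 region at SPI1 had 95.4 and 97.6, above the genome medians. The high medians of the windows together were thus mainly those of ETV6, and a median without ETV6 was not computed.

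**Figure D3:**
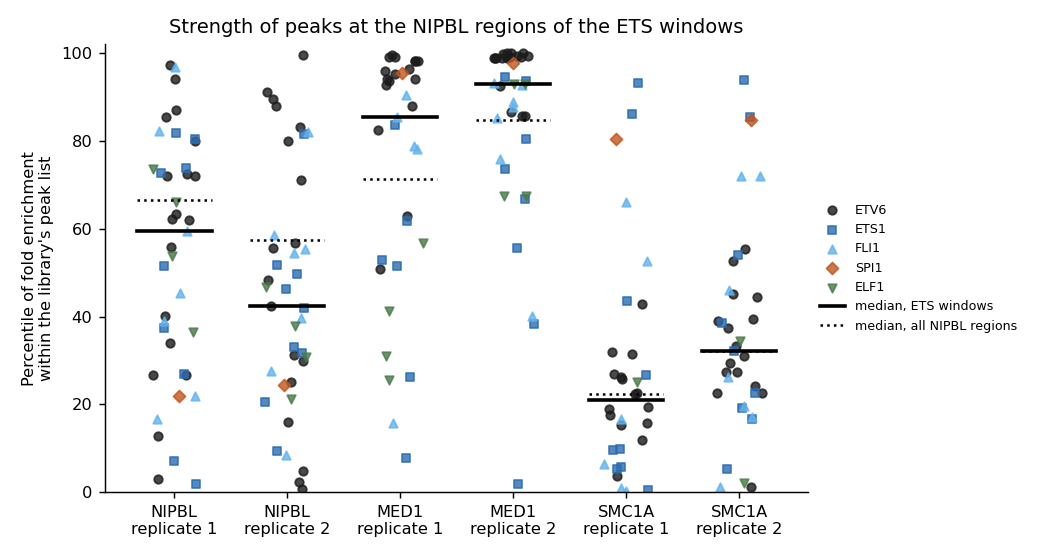
Percentile of fold enrichment within each library's list for the peaks at the 39 NIPBL regions of the windows (points, coloured and shaped by gene), with the median of the windows (solid line) and of all NIPBL regions (dotted line). MED1 medians are 85.5 and 92.9 in the windows, NIPBL 59.4 and 42.5, and SMC1A 20.9 and 32.2.

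Taking every peak in the windows in place of the NIPBL regions, the median percentile was 53.3 and 55.6 for MED1, 37.5 and 37.8 for NIPBL and 17.2 and 23.8 for SMC1A. A list has its median at 50 by construction, so MED1 lay slightly above its lists and NIPBL and SMC1A below theirs. Of the SMC1A peaks 55 of 91 and 58 of 110 lay below the 25th percentile of their list. Of the MED1 peaks 14 of 66 and 15 of 99 lay above the 90th. The control estimate was higher under these peaks than in the lists, with medians of 5.64 and 5.11 fragments in the windows against 4.14 and 4.09 in the lists for SMC1A, 7.48 and 6.46 against 6.64 and 5.95 for NIPBL, and 7.75 and 5.38 against 7.50 and 5.19 for MED1. Its part in the percentiles was not tested.

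SMC1A regions ranked higher where MED1 was absent, in the windows as in the genome, a difference that was not tested here. SMC1A regions without MED1 had median percentiles of 32.2 and 47.8 (26 regions), and those with MED1 16.0 and 30.3 (44 regions). Over the genome the medians were 60.9 and 67.6 without MED1 and 20.5 and 34.8 with it. At the 4 NIPBL regions with SMC1A alone, the median SMC1A enrichment was 15.2 and 18.3, against 15.5 and 17.8 at all such NIPBL regions, and 1 of the 4, at FLI1, had its SMC1A summits outside the region.

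The regions in the windows were wider than those of the genome by their medians, which was not tested. NIPBL regions had a median width of 612 bp in the windows, against 473 bp over the genome, SMC1A regions 584.5 against 415 bp, and MED1 regions 858 against 769 bp. Without the ETV6 window the medians were 612 bp for NIPBL, 529 bp for SMC1A and 785 bp for MED1, the last near its genome median. MED1 regions that overlapped NIPBL had a median of 1226 bp (25 regions) and those without NIPBL 662 bp (22 regions), against 862 and 702 bp over the genome. A wider region meets a partner more easily, so width and overlap are not independent measures. Regions within 12.5 kb of another of the same protein made up 82.1% of NIPBL regions in the windows against 55.1% of all, 70.2% against 57.5% for MED1 and 81.4% against 54.8% for SMC1A.

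**Figure D4:**
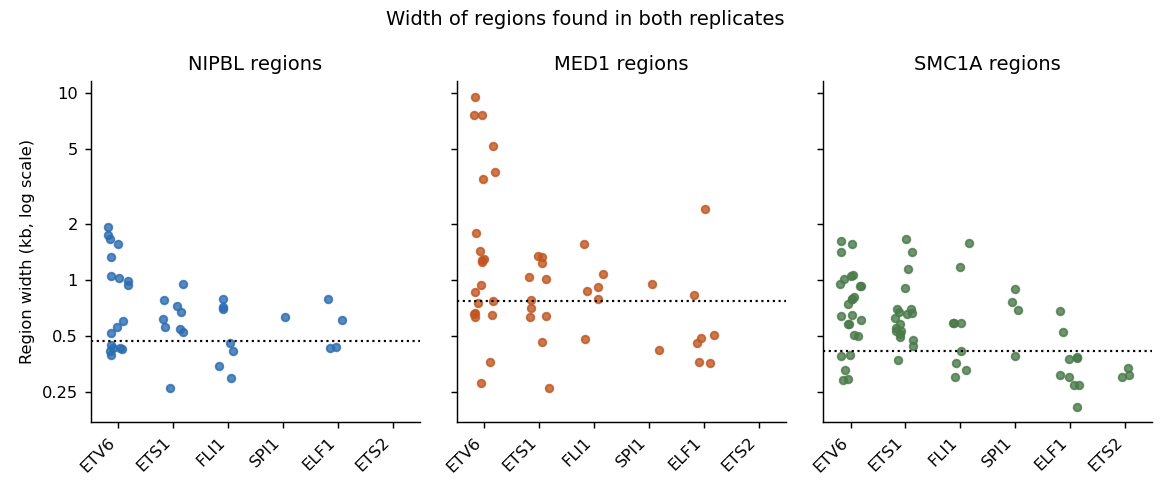
Width in kb (log scale) of each NIPBL, MED1 and SMC1A region found in both replicates, by window, with the genome median of each protein as a dotted line. The 4 MED1 regions over 5 kb are all in the ETV6 window, and NIPBL and SMC1A regions stay below 2 kb.

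Median distances between summits were longer in the windows than over the genome. From the NIPBL summit, the median distance to the MED1 summit was 63.5 and 122.5 bp in the windows, against 50 and 47 bp over the genome. To the SMC1A summit it was 103 and 87 bp, against 79 and 68 bp. Summits of NIPBL and MED1 within 200 bp made up 70.6% and 64.7% of the pairs in the windows, against 87.1% and 81.9%. At ETV6 the single summit of a broad MED1 peak was set against several NIPBL regions, and its part in these distances was not tested.

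Differences between the proteins were tested over libraries, where 2 against 2 cannot give a two-sided exact permutation p below 0.33. MED1 libraries covered 84.6% and 97.4% of the 39 NIPBL regions (91.0 ± 9.07, SD, n = 2), and SMC1A libraries 82.1% and 89.7% (85.9 ± 5.44, SD, n = 2). The difference of 5.13 percentage points was within the spread of the replicates (exact permutation test, two-sided, p = 0.667, adjusted over 4 comparisons 0.667). It was -1.28 points without MED1 replicate 2 and 0 without the ETV6 window. MED1 peaks covered 4.84% and 9.51% of window bases (7.17 ± 3.31, SD, n = 2), SMC1A peaks 3.78% and 5.17% (4.47 ± 0.983, SD, n = 2), and NIPBL peaks 3.32% and 2.34% (2.83 ± 0.693, SD, n = 2). MED1 exceeded NIPBL by 4.35 percentage points with no overlap between libraries (exact permutation p = 0.33, adjusted 0.666), or by 1.45 points without the ETV6 window. SMC1A exceeded NIPBL by 1.65 points, also without overlap (exact permutation p = 0.33, adjusted 0.666), but this difference was -1.99 points when all lists were cut to equal length by fold enrichment. MED1 exceeded SMC1A by 2.70 points with overlapping libraries (exact permutation p = 0.667, adjusted 0.667), and this difference was -0.488 points without the ETV6 window. None of the 4 could pass 0.05 in this design. The lowest control estimate solved in each list was set on a scale where MED1 replicate 1 is 1. It was 0.755 for MED1 replicate 2, 0.965 and 0.820 for NIPBL and 0.752 and 0.743 for SMC1A. The longer MED1 list thus had the lower value. Whether this value follows sequencing depth could not be checked without read totals.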

How the data were processed

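NIPBL, MED1 and SMC1A were profiled by ChIP-seq in GM12878, with 2 libraries each. Reads were handled with MACS2 2.1.0, BWA 0.7.12 and Trimmomatic 0.33 on hg19, per the submitters' processing notes, whose text was not used here. The authors' peaks were called library by library, with the pooled whole cell extracts as control, per the labels, and the extracts themselves were not analysed here. Files hold no read totals. The deposited fold enrichment is a ratio of summit signal to local control. The deposited −log10 p-value and −log10 q-value measure the evidence for a summit, and the deposited score was not used.

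Peaks touching the windows were taken as members with Python 3.11.15, pandas 2.3.3 and SciPy 1.17.1. The members, windows, gene lists and tests were chosen with earlier results of these data known. Percentiles rank fold enrichment within a list. Fragments at the summit and the control estimate were solved from fold enrichment and p-value, within 0.005 of the deposited −log10 p, and tested on simulated data. Intervals of shares are Clopper-Pearson at 95%. Library values were compared by exact permutation with Benjamini-Hochberg adjustment over 4 comparisons. Per window, values are given for all 6 genes, up to 3 NIPBL regions of highest mean percentile, the widest MED1 region, the strongest SMC1A region and each NIPBL region with neither partner. Other regions with values were chosen after these were seen. Alternatives were a stricter threshold, other overlap, region, list-length, window and ranking rules, leaving out each library, and a replicate block. Cell type markers were not checked, since the peaks carry no gene names.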

Additional observations from a re-analysis of the deposited data

How the results depend on the processing

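With regions found in either replicate, the counts in the windows were 75 for NIPBL, 98 for MED1 and 118 for SMC1A, in place of 39, 47 and 70. Leaving out each library in turn gave 39 to 67, 47 to 99 and 70 to 110, highest without NIPBL replicate 2, MED1 replicate 1 and SMC1A replicate 1, where a single list then defines the regions. The share of NIPBL regions with MED1 then ran from 76.1% to 97.4%, with SMC1A from 65.7% to 89.7%, and with neither from 0% to 13.4%. With summits at most 200 bp apart in place of overlap, 56.4% had MED1, 51.3% both and 15.4% neither. The genome shares under this rule were not computed. With 15357 top peaks by fold enrichment in every list, 6 SMC1A regions remained in the windows, SMC1A was met by 6.90% of NIPBL regions, both by 0% and neither by 13.8%, and SMC1A minus NIPBL in window bases turned to -1.99 percentage points. SMC1A peaks in the windows are weak within their lists, and this setting keeps the strongest only.

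Without the ETV6 window, an alternative chosen after seeing the data, 21 NIPBL, 26 MED1 and 45 SMC1A regions were left, the coverage difference between MED1 and SMC1A was 0, and MED1 minus SMC1A in window bases turned to -0.488 points. The coverage difference ran from -1.28 to 11.9 points with a library left out, and was negative without MED1 replicate 2. For window bases it ran from 2.01 to 6.68 for MED1 minus NIPBL, from 0.361 to 5.04 for MED1 minus SMC1A and from 0.952 to 2.34 for SMC1A minus NIPBL. Median percentiles moved to 56.4 for MED1 and 32.2 for NIPBL at −log10 q of at least 5, to 50.0, 39.6 and 40.2 for MED1, NIPBL and SMC1A in lists of equal length, and to 46.8 for NIPBL and 26.3 for SMC1A when ranked by −log10 p. For NIPBL it was 37.96 in windows 20 kb wider, 40.2 in windows 10 kb narrower on each side, and 34.9 without ETV6, against 37.6. The cause of these shifts was not tested.

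The labels give the proteins the same replicate numbers but no shared batch. Deviations of same-numbered libraries over the 6 windows correlated at 0.71 to 0.745. With a replicate block the differences kept their values, 5.13 points for coverage and 4.35, 2.70 and 1.65 points for window bases, and the exact permutation p was 0.5 in each, the smallest that 2 pairs allow, so no call changed.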

Other observations

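Strong cohesin sites without Mediator also lay just outside the windows. Within 20 kb of the ETS1 window, SMC1A was at 27.7 and 30.3 at chr11:128501656-128502545, where NIPBL was at 4.01 and 4.22 and MED1 was called in neither list. Beyond the SPI1 window, SMC1A was at 30.4 and 34.3 at chr11:47433516-47434138 with no partner. Beyond the FLI1 window it was at 22.97 and 27.6 at chr11:128729667-128730138, also with no partner. All of these exceed the highest SMC1A enrichments inside the ETV6 window, 7.08 and 8.79. Beyond the ETV6 window itself, SMC1A was at 10.9 and 11.2 at chr12:11775605-11776048, also above those values. NIPBL replicate 1 was called there at 3.65 and MED1 replicate 2 at 3.425. At chr12:11775005-11775292 SMC1A was at 6.71 and 10.3, with no partner. Over the genome, 42108 of 51020 SMC1A regions had no MED1 region.

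The ETS2 window had a NIPBL and MED1 region close outside it. At chr21:40139165-40139867, NIPBL was at 4.49 and 3.65 and MED1 at 3.85 and 6.37, with SMC1A in replicate 1 only, at 3.82. The absence of MED1 peaks therefore holds for the window as drawn and not for its surroundings. These regions were chosen after their values were seen.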
